A study of Homo sapiens with 6 samples.

Results

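The transcripts of the ERBB receptors and of their ligands were examined in PANC-1 cells with and without ZDHHC20 silencing. The members were the receptors EGFR, ERBB2, ERBB3 and ERBB4 and the ligands AREG, EREG, HBEGF, TGFA, BTC and NRG1. They form a list of symbols, chosen with earlier results of these data known, to which no threshold on measured values was applied. Of these 10 genes, 9 have a row among the 27394 genes of the table, and all 9 were tested. ERBB4 has no row and was not analysed here, and the table lists no gene at 0 in all 6 libraries. PANC-1 is an established human pancreatic cancer cell line. The cells had received, by infection, either a control shRNA (shControl) or one against ZDHHC20 (shZDHHC20), with 3 replicates in each group and no other treatment named. All libraries thus came from infected cells, and neither the shRNA of the RNA-seq libraries nor separate cultures for the replicates are named in the sources used here, so that p-values measure the spread between these libraries only.

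The ERBB receptors are receptor tyrosine kinases that pair with each other when a ligand binds. EGFR binds AREG, EREG, HBEGF, TGFA and BTC, of which EREG, HBEGF and BTC also bind ERBB4, while NRG1 binds ERBB3 and ERBB4. ERBB2 has no known ligand and serves as a partner, and ERBB3 has little kinase activity of its own. The ligands are made as membrane precursors, are cut free by ADAM proteases and act on the same or nearby cells. ZDHHC20 is a palmitoyl acyltransferase that is known to attach palmitate to cysteines in the tail of EGFR.

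The deposited table gives 1 value for each gene in each library. Within a library each value is a whole multiple of the smallest one above 0, and the values are referred to here as normalized counts. Counted in such multiples, the libraries held between 16575546 and 18441049. ZDHHC20, the silenced gene, was at 42.6% of its control level (log2 fold change -1.23, limma adjusted p = 4.36e-07). The epithelial keratins KRT8, KRT18 and KRT19 were at 5771 or above in every library, while the leukocyte markers of the table summed to between 23.3 and 45.1 and the endothelial ones to between 32.9 and 55.6 per library. The other epithelial markers were lower. KRT7 was at 63.6 to 122 over all libraries, and in the controls EPCAM was at 56.1 to 95.4 and CDH1 at 273 to 297. CD3E, LYZ and PECAM1 have no row. Of 6 ductal epithelial markers 2 rose, EPCAM (log2 fold change 2.89, limma adjusted p = 6.7e-07) and CDH1 (1.13, 6.62e-06). Of all genes tested, 11.5% passed in either direction and 4.61% were higher. KRT8 (-0.13, adjusted p = 0.0631) and KRT18 (-0.16, 0.0549) were lower and KRT19 (0.09, 0.218) higher, without overlap between groups, and did not pass. The list summed to between 80928 and 82930 in the shControl and between 75945 and 77258 in the shZDHHC20 libraries. Of the fibroblast markers, COL1A1 was abundant in these cells and fell (-0.27). COL3A1 was at 76.4 ± 7.64 and 86.2 ± 6.46 (SD, n = 3, log2 fold change 0.18) and did not pass, LUM was at 0 in the controls and between 0.939 and 3.18 in the silenced libraries and did not pass, and DCN, COL1A2 and PDGFRA have no row. The part of these markers in the results was not tested, and in such bulk samples fewer cells of a kind and less RNA per cell cannot be told apart. Where the mean was 1000 or more, the SD of log2 differences was from 0.0674 to 0.0718 between shControl libraries but reached 0.198 between shZDHHC20 libraries, where replicate 2 stood apart.

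EGFR fell with ZDHHC20 silencing, AREG and EREG rose, and for the other 6 members no change passed the threshold. An adjusted p under 0.05 in limma's two-sided test was thus found for 3 of 9 members, or 33.3%, against 11.5% of the 22189 genes tested. All members but BTC had means of at least 74.3 over the 6 libraries, while all genes tested reach down to a mean of 1. The shares are thus not at like level. The share of all genes was 4.61% for higher and 6.84% for lower values. Non-overlapping groups were found for 5 of 9 members, EGFR, ERBB2, AREG, EREG and TGFA, against 28.6% of all genes tested. The median log2 fold change was 0.18 over the 9 members and 0.01 over all genes tested. The plot of the members by library shows these values.

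**Figure D1:**
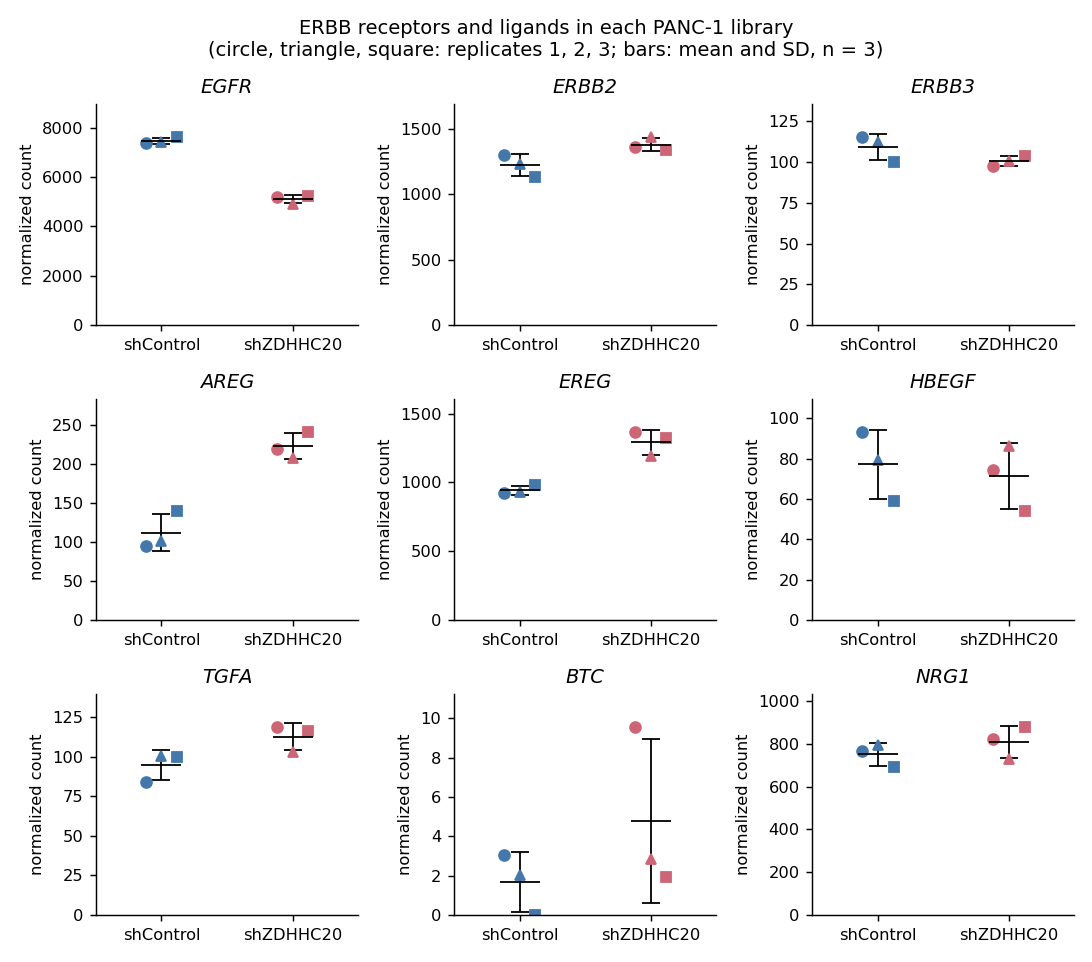
Normalized count of each receptor and ligand (vertical axis, from 0, with its own scale for each gene) in the shControl and shZDHHC20 libraries, with replicates 1, 2 and 3 as a circle, a triangle and a square and bars for the mean and SD (n = 3). All shZDHHC20 libraries lie below all shControl libraries for EGFR and above them for ERBB2, AREG, EREG and TGFA, while the groups overlap for the other genes.

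EGFR (ENSG00000146648), the receptor of most ligands in this set, was the most abundant member. The control libraries, in the order of their numbers, held normalized counts of 7388, 7411 and 7610.3, and the silenced ones 5200.2, 4920.1 and 5238. All silenced libraries were thus below all control libraries, and the spread within each group was small beside the gap between them. On average EGFR fell to 68.5% of the control, with means of 7469.6 ± 122 in shControl and 5119 ± 174 in shZDHHC20 (SD, n = 3 each). This was a log2 fold change of -0.55 (standard error 0.045, 95% interval -0.64 to -0.45, limma adjusted p = 9.03e-06). By p, EGFR stood at rank 40 of the 22189 genes tested. The exact permutation test over the 6 libraries gave a two-sided p of 0.1, the smallest that 3 against 3 allow. The fall passed the threshold in each of the 15 alternatives tried, with a log2 fold change between -0.56 and -0.52 and an adjusted p of at most 0.0398.

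In GENCODE 29 (GRCh38), EGFR spans 55019021 to 55211628 of chromosome 7, plus strand. It overlaps EGFR-AS1 on the other strand, which was at no more than 16.4 in any library. The 250 bases before the first EGFR start in RefSeq (GRCh38.p14, chr7:55018767-55019016, plus strand) are shown because EGFR was the receptor whose transcript changed. Capitals mark the GC box GGGCGG on either strand, which 42.6% of all 35116 RefSeq promoter windows of the same length hold.
EGFR promoter: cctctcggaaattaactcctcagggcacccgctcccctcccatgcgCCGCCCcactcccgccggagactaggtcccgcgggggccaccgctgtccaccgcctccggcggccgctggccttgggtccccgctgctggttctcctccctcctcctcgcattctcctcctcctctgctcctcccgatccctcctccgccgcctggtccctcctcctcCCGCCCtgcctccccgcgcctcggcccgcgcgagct
The window is 73.6% G or C, against a median of 58.0% over all windows, and holds 2 GC boxes and no TATAAA. A second RefSeq start of EGFR, with 2 matches each to TATAAA and to the AP-1 letters TGANTCA, is not shown, and the gene table does not tell the starts apart.

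ERBB2 (ENSG00000141736), the partner without a ligand, did not pass the threshold. In the same order, ERBB2 was at 1300.5, 1229 and 1133 in the controls and at 1362, 1434 and 1337 after silencing. Each silenced library was above each control library, though the highest control and the lowest silenced library were close. For ERBB2 the log2 fold change was 0.18 (standard error 0.0652, 95% interval 0.035 to 0.32, limma adjusted p = 0.11). ERBB2 overlaps PGAP3 and MIEN1 on the other strand, and it is not known whether the strand was used in counting. ERBB3 (ENSG00000065361), the receptor of NRG1, was at a low level that overlapped between groups. It was at 115, 112 and 100.1 in the shControl and 97.5, 100.5 and 104 in the shZDHHC20 libraries. The log2 fold change of ERBB3 was -0.12 (95% interval -0.42 to 0.18, limma adjusted p = 0.672).

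Within each library, the ratio of ERBB2 to EGFR does not depend on how libraries were scaled. On the log2 scale it averaged -2.61 ± 0.122 before and -1.89 ± 0.102 after silencing (SD, n = 3 each), and the difference was 0.72 (two-sided exact permutation p = 0.1, the smallest possible). The ratio of ERBB3 to EGFR differed by 0.43, from -6.10 ± 0.132 to -5.67 ± 0.0626 (SD, n = 3 each, exact permutation p = 0.1). Both ratios were higher in each silenced library than in any control library. Both ratios contain EGFR and are thus not independent of its fall, and the difference for ERBB3 was smaller than that fall, with ERBB3 itself at a log2 fold change of -0.12.

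Per kb of exon, EGFR led the receptors at 659 ± 10.8 (SD, n = 3) normalized counts per kb in the shControl group, followed by ERBB2 at 216 ± 14.8 and ERBB3 at 14.7 ± 1.08. The 3 levels were far outside each other's spread. EGFR made up 74.1% ± 1.62 (SD, n = 3) of the summed receptor level per kb in the shControl and 63.7% ± 1.58 in the shZDHHC20 group, and ERBB2 24.2% ± 1.51 and 34.3% ± 1.58. The summed receptor level per kb was from 885 to 897 in the shControl and from 700.9 to 712 in the shZDHHC20 libraries. These sums are descriptions and were not tested. The exon length used was that of all annotated exons of a gene together (11.3 kb for EGFR), not of the transcripts present in these cells. The SD does not cover this, so that levels per kb of different genes are approximate.

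**Figure D2:**
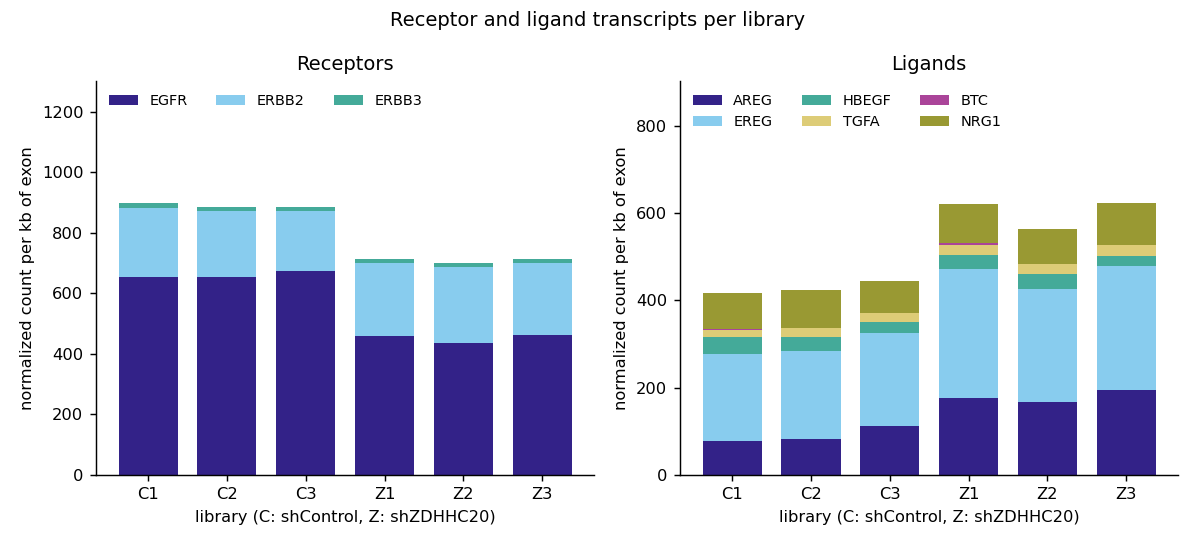
Summed level of receptors (left) and ligands (right) in normalized counts per kb of exon, from 0, with 1 bar per library (C for shControl and Z for shZDHHC20 with the replicate number) stacked by gene. The receptor bars of the silenced libraries are lower, through EGFR, and the ligand bars are higher, at 563 to 623 against 417 to 446.

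AREG (ENSG00000109321), amphiregulin, is a ligand of EGFR alone. AREG was at 94.98, 101 and 139 in control replicates 1 to 3 and at 219, 208 and 241 in the silenced ones. The groups were far apart, although shControl replicate 3 stood above the other controls. AREG rose to 199% of the control, from 112 ± 23.9 to 223 ± 16.7 (SD, n = 3 each), at a log2 fold change of 1.01 (standard error 0.15, 95% interval 0.69 to 1.33, limma adjusted p = 0.000722).

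EREG (ENSG00000124882), epiregulin, is the neighbour of AREG in the genome and was the most abundant ligand. EREG was at 922, 929 and 982 in control replicates 1 to 3 and at 1364, 1191 and 1321 in the silenced ones. All silenced libraries were above all controls, and shZDHHC20 replicate 2 was the lowest of them. EREG rose to 137% of the control, from 944 ± 33.1 to 1292 ± 90.3 (SD, n = 3 each), at a log2 fold change of 0.45 (standard error 0.0673, 95% interval 0.31 to 0.60, limma adjusted p = 0.000764). Without the mean-variance trend the adjusted p rose above the threshold for both AREG (0.0728) and EREG (0.0747), and in the other 14 alternatives both passed it.

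AREG and EREG lie in the same direction on the plus strand of chromosome 4 of GRCh38, EREG from 74365143 to 74388751 and AREG from 74445134 to 74455009, with 56.4 kb between them and no gene of the table in the gap. BTC lies 290 kb farther, on the minus strand. The 250 bases before the RefSeq starts of both genes (GRCh38.p14, chr4:74444886-74445135 for AREG and chr4:74364895-74365144 for EREG, plus strand) are shown because these neighbours rose together. Capitals mark the TATA box letters TATAAA, the cAMP response element TGACGTCA and the GC box GGGCGG, searched on both strands.
AREG promoter: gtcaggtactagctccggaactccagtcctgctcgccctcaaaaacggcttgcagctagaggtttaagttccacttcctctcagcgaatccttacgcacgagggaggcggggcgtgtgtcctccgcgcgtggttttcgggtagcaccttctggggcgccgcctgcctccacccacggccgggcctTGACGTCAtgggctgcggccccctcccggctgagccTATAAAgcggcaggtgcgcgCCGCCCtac
EREG promoter: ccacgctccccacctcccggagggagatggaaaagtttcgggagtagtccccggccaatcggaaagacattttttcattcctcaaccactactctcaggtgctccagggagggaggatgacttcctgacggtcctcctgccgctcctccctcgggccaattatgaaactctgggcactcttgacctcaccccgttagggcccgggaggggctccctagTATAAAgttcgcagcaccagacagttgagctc
Both windows hold TATAAA, which begins 29 bases before the start in AREG and 32 bases before it in EREG, and 10.7% of all windows hold these letters. The AREG window also holds TGACGTCA, 65 bases before the start, which 1.65% of all windows hold, and a GC box. The AP-1 letters TGANTCA, in 6.57% of all windows, and GCGNGGGCG, the letters of an EGR1 site, in 8.42%, are in neither. Among the 8 members with a RefSeq window, the first windows of EGFR, ERBB2, ERBB4, HBEGF, TGFA and BTC hold no TATAAA. Such matches describe letters and do not show that a factor binds.

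HBEGF (ENSG00000113070), the heparin-binding ligand of EGFR and ERBB4, varied as much within groups as between them. HBEGF was at 93.0, 79.3 and 59.1 in the shControl and 74.2, 86.4 and 53.9 in the shZDHHC20 libraries. The log2 fold change of HBEGF was -0.11 (95% interval -0.59 to 0.36, limma adjusted p = 0.814), and its sign changed without shControl replicate 1 (0.035) or shZDHHC20 replicate 3 (0.079). TGFA (ENSG00000163235), transforming growth factor alpha, was at 83.9, 100.4 and 100.1 in the shControl and at 119, 103 and 116 in the shZDHHC20 libraries. The silenced libraries were all above the controls, by little in replicate 2, and the log2 fold change of TGFA was 0.25 (95% interval -0.064 to 0.57, limma adjusted p = 0.329).

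NRG1 (ENSG00000157168), neuregulin 1, which acts through ERBB3 and ERBB4, was abundant and overlapped between groups. NRG1 was at 767, 797 and 693 in the shControl and 824, 728 and 879 in the shZDHHC20 libraries. The log2 fold change of NRG1 was 0.10 (95% interval -0.075 to 0.28, limma adjusted p = 0.493). BTC (ENSG00000174808), betacellulin, was near the floor of detection at 3.03, 2.01 and 0 in the shControl and 9.54, 2.82 and 1.92 in the shZDHHC20 libraries. Among the silenced libraries, shZDHHC20 replicate 1 held most of the BTC signal, and the log2 fold change of 2.14 had an interval from -0.84 to 5.12 (limma adjusted p = 0.387). Without that replicate the log2 fold change of BTC was 1.48, and without shControl replicate 3, where BTC was at 0, it was 0.58.

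**Figure D3:**
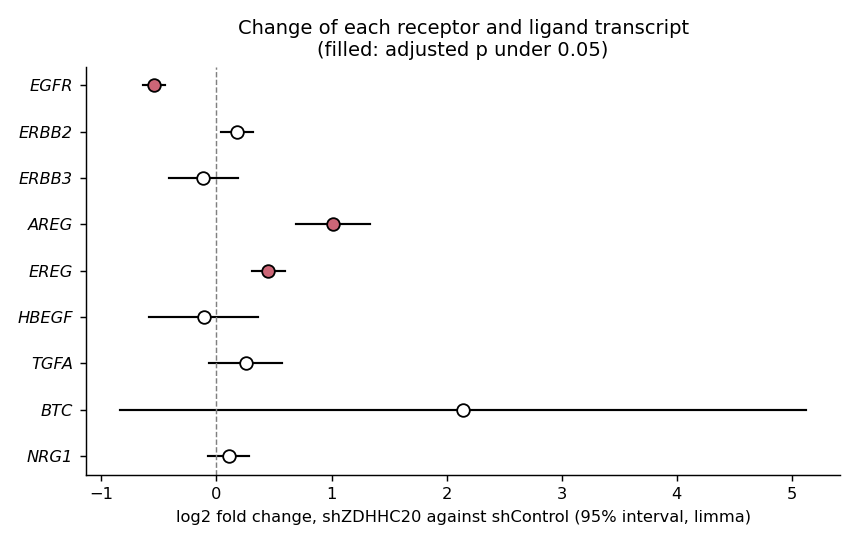
Log2 fold change of each receptor and ligand, shZDHHC20 against shControl, on the log2(normalized count + 0.1) scale, with its 95% interval from limma as a line and a filled point where the adjusted p was under 0.05. EGFR lies below 0 and AREG and EREG above it, and the interval of BTC, the gene with the lowest counts, spans from -0.84 to 5.12.

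Per kb of exon, EREG led the ligands at 204 ± 7.16 (SD, n = 3) normalized counts per kb in the shControl group. AREG at 90.2 ± 19.2 and NRG1 at 81.7 ± 5.84 came next and did not differ beyond their spread. HBEGF at 32.3 ± 7.15 and TGFA at 19.8 ± 1.98 followed, and BTC was at 0.597 ± 0.548. This order and the shares below cover the 6 ligands among the members only. They also depend on the length of all annotated exons, from 1.24 kb for AREG to 9.21 kb for NRG1. NRG2, which is not a member, was at 52.5 ± 6.50 per kb in the shControl group. In the shZDHHC20 group the level per kb of AREG was 179 ± 13.5, above that of NRG1 at 87.9 ± 8.28, while EREG was at 279.7 ± 19.5. The share of AREG in the summed ligand level per kb was from 18.4% to 25.2% in the shControl and from 28.5% to 31.1% in the shZDHHC20 libraries. The share of EREG was 47.7% ± 0.238 and 46.4% ± 0.988 (SD, n = 3), and that of NRG1 19.1% ± 1.92 and 14.6% ± 0.657. AREG and EREG together thus made up most of the ligand transcripts per kb in both groups. Of the other ERBB ligands, NRG2 was at 215 ± 26.6 and 195 ± 27.3 (log2 fold change -0.15, limma adjusted p = 0.554), EPGN and NRG4 were at most 6.01 in any library, NRG3 was listed at no more than 1.01, and EGF has no row.

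The genes whose values lay nearest to those of EGFR over the 6 libraries, among 10908 genes with a mean of at least 100, were LRFN1, LITAF and TMEM123. Nearness was the mean absolute difference of centred log2 values, which was 0.0102, 0.016 and 0.0234. Their log2 fold changes were -0.54 for LRFN1, -0.54 for LITAF and -0.58 for TMEM123. Values near that of EGFR follow from how these genes were picked and are not a separate result.

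The genes around the receptors were described by lists written by hand, with earlier results of these data known. The share of a list that passed is thus not independent of these data. None of the 7 ADAM proteases and iRhoms passed the threshold, against 11.5% of all genes tested. In so short a list, none is near that share. These genes cut ligands free or help that cut. Their log2 fold changes were from -0.43 to -0.04, with a median of -0.15. The lowest was that of ADAM12, which was near the floor at no more than 8.01 in any library (standard error 0.98). ADAM17, the main sheddase of AREG and EREG, was at 809.7 ± 30.4 and 694 ± 44.9 (SD, n = 3, log2 fold change -0.22, limma adjusted p = 0.0622). Of 14 adaptors and proximal effectors tested, 1 rose and none fell, 7.14% of the list against 11.5% of all genes tested. It was PTPN11, the phosphatase SHP2 that carries signals from the receptors to RAS (log2 fold change 0.23, limma adjusted p = 0.012), which overlaps RPL6 on the other strand and lost the call without shControl replicate 1 (0.0829), shControl replicate 2 (0.0714), shZDHHC20 replicate 1 (0.0693) or shZDHHC20 replicate 3 (0.0528). GRB2, SHC1 and SOS1 were between -0.10 and 0.05 on the log2 scale.

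Of 13 negative regulators of the receptors, 2 rose and 2 fell, 30.8% of the list against 11.5% of all genes tested. All of them but CBLC had means of at least 239 over the 6 libraries, so that these shares are not at like level. PTPN1, a phosphatase that acts on EGFR, fell from 1735 ± 90.0 to 1210.3 ± 19.4 (SD, n = 3, log2 fold change -0.52, limma adjusted p = 8.96e-05), and all silenced libraries were below all controls. SOCS4, which promotes the breakdown of EGFR, also fell (-0.30, adjusted p = 0.00993). ERRFI1, the feedback inhibitor MIG6 that binds the EGFR kinase, was very abundant and rose from 18370.1 ± 269 to 21071 ± 909.6 (SD, n = 3, log2 fold change 0.20, limma adjusted p = 0.00963). CBLC, a ubiquitin ligase of epithelial cells, rose from a low level of 5.36 ± 3.22 to 22.3 ± 9.95 (SD, n = 3, 2.11, adjusted p = 0.0215). CBL and CBLB, the other ligases of this family, were at 0.07 and -0.02. SOCS4 lost the call without shControl replicate 2 or 3 (adjusted p up to 0.0654), ERRFI1 without shControl replicate 1 or 3 or shZDHHC20 replicate 1 (up to 0.0759), and CBLC without any library but shControl replicate 2 (up to 0.0827), while PTPN1 kept it (at most 0.00253).

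Of 15 genes of receptor endocytosis and sorting, 2 rose and 2 fell, 26.7% of the list against 11.5% of all genes tested. The 15 genes had means of at least 478.9 over the 6 libraries, while all genes tested reach down to a mean of 1, so the shares are not at like level. RAB5A, the GTPase of early endosomes, rose from 1096 ± 55.1 to 1543 ± 68.9 (SD, n = 3, log2 fold change 0.49, limma adjusted p = 0.00023). RAB7A, the GTPase of late endosomes, fell from 3791 ± 67.2 to 2749 ± 12.3 (SD, n = 3, log2 fold change -0.46, limma adjusted p = 3.36e-05). RAB11A, of recycling endosomes, rose (0.21, adjusted p = 0.0264), and EPS15L1, an endocytic adaptor, fell (-0.33, adjusted p = 0.0376), but RAB11A lost the call without shControl replicate 1 or 3 or shZDHHC20 replicate 1 or 3 (adjusted p up to 0.149) and with the replicate block (0.0638), and EPS15L1 without any library but shZDHHC20 replicate 2 (up to 0.166) and after quantile normalization (0.0683). Of the pathway genes named here, only PTPN1, RAB7A and EGR1 passed without the mean-variance trend. On the opposite strand lie PP2D1 at RAB5A and DENND4A at RAB11A, and pseudogenes lie within RAB7A.

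Of 17 transcripts that ERBB and MAPK signalling is known to induce, 8 fell and none rose, which is 47.1% of the list. Of all genes tested, 11.5% passed in either direction and 6.84% were lower. The lowest mean of the 17 over the 6 libraries was 12.4 (DUSP4), while all genes tested reach down to a mean of 1. The shares are thus not at like level. Like the other lists, this list was written with earlier results of these data known. The median log2 fold change was -0.31 over the 17 and 0.01 over all genes. EGR1, an immediate early transcription factor, fell most and was at 341, 317 and 317 in the shControl and at 161, 128 and 157 in the shZDHHC20 libraries (log2 fold change -1.14, standard error 0.114, limma adjusted p = 3.65e-05). DUSP5 (-0.44) and SPRY4 (-0.34), feedback inhibitors of the pathway, FOSL1 (-0.36), a subunit of AP-1, and PHLDA1 (-0.33) fell as well. Non-overlapping groups were found for these and in total for 13 of the 17 genes, against 28.6% of all genes tested. SPRED1, SPRED2 and ETV5 made up the 8, at -0.33, -0.21 and -0.24. Of the 9 that did not pass, 7 were below 0, among them DUSP6 (-0.33, adjusted p = 0.0611) and ETV4 (-0.41, 0.0622). FOS and DUSP4 were low, with standard errors of 0.38 and 0.421. IER2 (0.23) and IER3 (0.09) did not pass, but each was higher in every silenced library than in any control library. The number of calls was 5 without any 1 of the shControl libraries, 12 without shZDHHC20 replicate 2 (1 of them higher) and 1, EGR1, without the mean-variance trend.

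**Figure D4:**
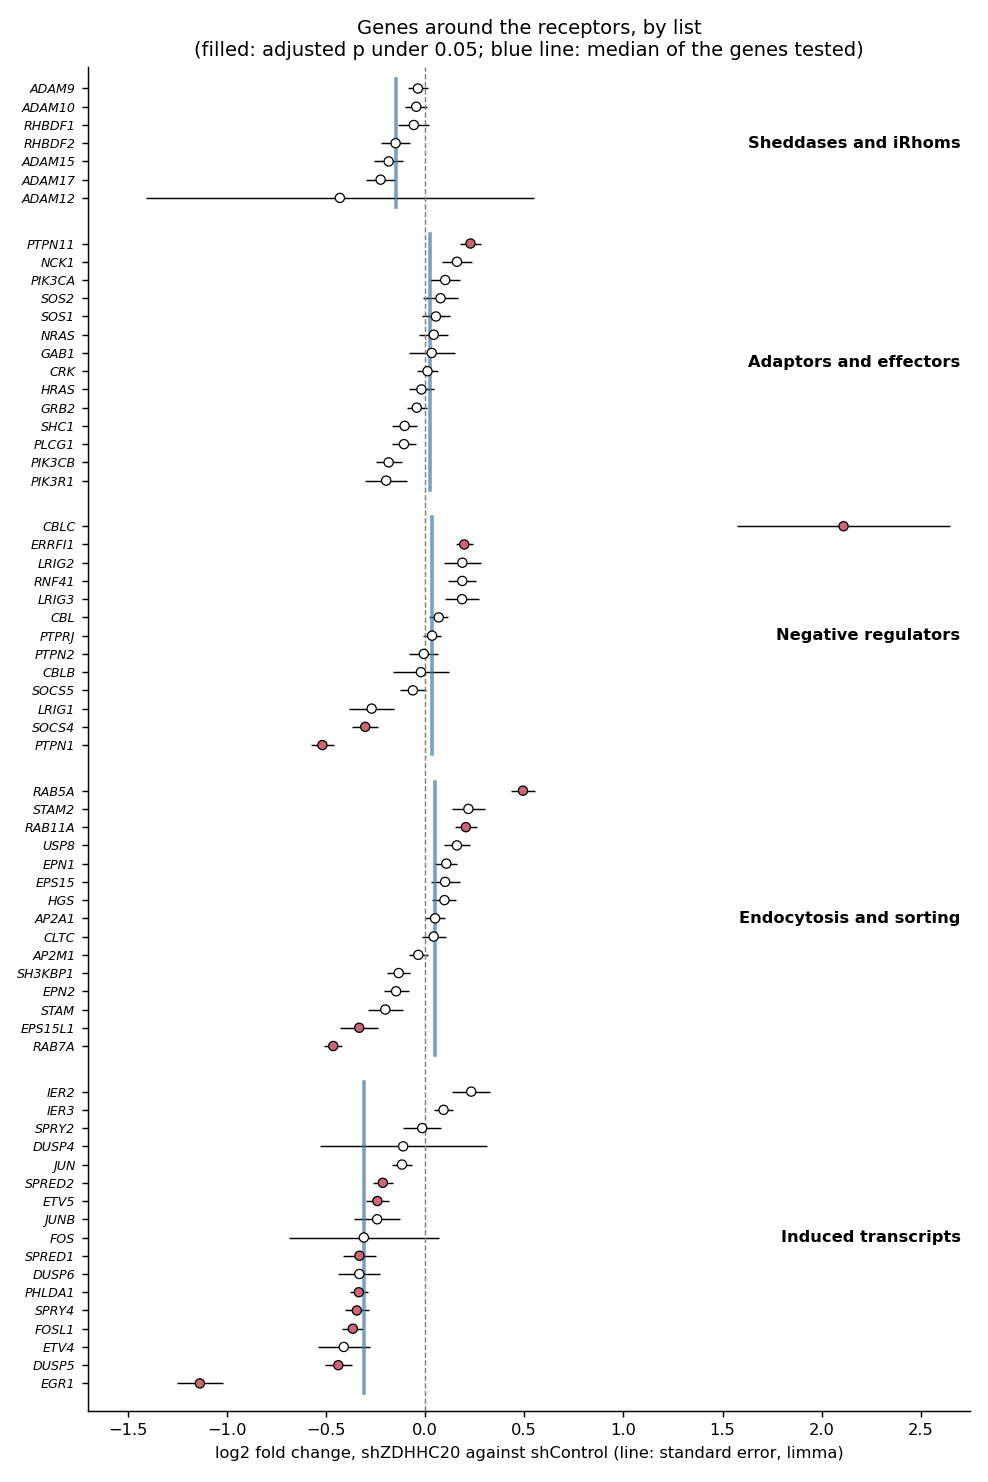
Log2 fold change (shZDHHC20 against shControl, with the standard error from limma as a line) of each tested gene of 5 lists, ordered within its list, with filled points for an adjusted p under 0.05 and a blue line at the median of each list. The filled points of the induced transcripts all lie below 0, with EGR1 at -1.14, while the negative regulators and the endocytosis genes have filled points on both sides.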

How the data were processed

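RNA-seq libraries of PANC-1 cells were analysed from 1 table of the authors, with 3 shControl and 3 shZDHHC20 libraries. The authors deposited a normalized signal per gene and library, named FPKM but rising in whole steps of each library's smallest value above 0 (0.939 to 1.06, tolerance 0.01 of a step), without division by gene length. Per the labels the kit was strand-specific and hg19 was a build named in the submitters' processing notes. Aligner and counter are not given in the sources used here, and the values were taken as counts divided by a size factor. Columns named siZDHHC20 and NC were matched to shZDHHC20 and shControl by group and replicate number.

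Names came from the reference table (27175 of 27394 identifiers) and then GENCODE 29 (GRCh38), which also gave positions, overlaps and summed exon lengths (basic annotation). In R 4.3.3, log2(value + 0.1) of 22189 genes (minimum mean 1) was fitted with limma 3.58.1 (group as the term, mean-variance trend), two-sided, with Benjamini-Hochberg adjustment over all genes tested and a threshold of 0.05. On this scale the changes of low genes depend on the pseudocount, and those of genes with values of 0 can exceed the ratio of their means. Single values were also tested by exact permutation over the 6 libraries. Figures were drawn with Python 3.11.15 and matplotlib 3.10.9. Promoters came from RefSeq (GRCh38.p14), with 8 of 10 members matched.

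The members and lists were chosen with earlier results of these data known. Named were all members, ZDHHC20, the other ERBB ligands, up to 5 genes with the smallest adjusted p under 0.05 in each pathway list, and the 3 genes nearest to EGFR. Others, named to complete a count or as examples of genes that did not pass, and the genes near EGFR and AREG, were chosen after their values were seen. The scripts were tested on simulated data. The fit was repeated with other pseudocounts (1, 0.01), without the filter or with a minimum mean of 10, after quantile normalization or median-ratio scaling, without the trend, with a replicate block, with each library left out, and, added after seeing the data, a pseudocount of 1 with that minimum mean. Count tests were not run. Some genes of the lists are not reported here.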

Additional observations from a re-analysis of the deposited data

How the results depend on the processing

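Members called, 3 as reported, stayed at 3 in 14 of 15 alternatives, the exception being the fit without the mean-variance trend, with 1 (EGFR). That fit also gave 351 calls among all genes instead of 2541 and 1 instead of 8 among the induced transcripts, and log2 fold changes of 1.01 for AREG and 0.45 for EREG that no longer passed. With each library left out in turn, calls among all genes were from 1233 to 4454 (1233, 1283 and 1233 without shControl replicates 1, 2 and 3, 1375 without shZDHHC20 replicate 1 and 4454 without shZDHHC20 replicate 2), calls among members stayed at 3, and calls among the induced transcripts were from 5 to 12. The log2 fold change of HBEGF, which did not pass, was from -0.29 to 0.079 in these fits and was above 0 without shControl replicate 1 (0.035) and shZDHHC20 replicate 3 (0.079). The direction of the other members was kept in each alternative that could be fitted. BTC was left out of the fits with a mean of at least 10. Same-numbered libraries did not deviate together (correlations of -0.0948, -0.156 and -0.0771 over 10908 genes), and with the replicate block 1942 genes, the same number of members (3) and 8 induced transcripts were called. edgeR and DESeq2 were not run, since whole reads were not taken as recovered. The depth limits BTC, at under 10 normalized counts in each library, most.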

Other observations

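The genes within 1 Mb of EGFR and of AREG were described after the values of both had been seen. Around EGFR, 21 other genes were tested, of which 2 rose and 2 fell at an adjusted p under 0.05 (limma), 4 of 21 against 11.5% of all genes tested. SEC61G, upstream of EGFR, rose from 1040.5 ± 54.8 to 1263 ± 121 (SD, n = 3, log2 fold change 0.28, adjusted p = 0.0298). VOPP1, downstream of it, rose from 1244 ± 17.1 to 1503 ± 82.4 (SD, n = 3, 0.27, adjusted p = 0.00958). The nearest coding gene downstream, LANCL2, was at 553 ± 53.6 and 628.5 ± 38.4 (SD, n = 3, 0.19, adjusted p = 0.21). MRPS17, which overlaps NIPSNAP2, and CCT6A, both farther away, fell by 0.47 and 0.18 on the log2 scale.

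Around AREG, 12 other genes were tested, and the calls were EREG and CXCL1, both higher. This is 2 of 12, against 11.5% of all genes tested in either direction and 4.61% that were higher. EREG is a member whose rise is already given above. CXCL1, a chemokine that attracts neutrophils, rose from 42.6 ± 7.45 to 82.3 ± 16.2 (SD, n = 3, log2 fold change 0.95, limma adjusted p = 0.011). MTHFD2L, which lies between the chemokines and EPGN, was at 119 ± 7.598 and 135 ± 10.6 (SD, n = 3, 0.19, adjusted p = 0.431). CXCL8 was at 10.4 ± 2.51 and 18.5 ± 5.48 (SD, n = 3, 0.81, adjusted p = 0.264), and CXCL2, CXCL3 and CXCL5 were at a mean under 16 in both groups.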
